A study of Mus musculus with 30 samples.

Results

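The RNAs described here are those of the subunits of the mitochondrial respiratory chain and of ATP synthase. Members were taken by gene symbol alone: every row named as an Nduf subunit of the a, b, c, s or v series, a Cox subunit numbered from 4 to 8, a Uqcr, Sdh or Atp5 gene, or a mitochondrial Nd, Co, Cytb or Atp gene. The rule found 94 of the 29117 rows, 81 encoded in the nucleus and 13 in mitochondrial DNA, and no measured value entered it. The samples were the left liver lobe of C57BL/6J mice aged 10 weeks that had fasted for 12 to 16 h. Each received human insulin (0.7 U/kg) or phosphate-buffered saline (PBS) into the peritoneal cavity. Each treatment had 5 sampling points with 3 libraries each, 30 libraries in all. The labels number the points and give no minutes, so the points are named 1 to 5. They give replicate numbers but do not say which libraries came from separate mice, so the p-values measure the spread between these libraries, which may be partly technical.

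The respiratory chain passes electrons from NADH (complex I) and succinate (complex II) through coenzyme Q to complex III, then through cytochrome c to complex IV, which reduces oxygen. Complexes I, III and IV pump protons across the inner mitochondrial membrane, and ATP synthase (complex V) uses the returning protons to make ATP. Complexes I, III, IV and V are assembled from products of both genomes, while complex II is wholly nuclear. The liver draws on this ATP for glucose production during fasting, a process that insulin restrains.

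Levels are in FPKM, in which fragments are scaled to transcript length and to the library's mapped total, so they can be compared between genes. Differences between treatments are on the log2(FPKM + 1) scale, insulin minus PBS, from limma fitted to all 30 libraries, and a gene is called where its Benjamini-Hochberg adjusted p over 13589 tested genes is below 0.05. Liver identity was checked with albumin (Alb), whose group means ran from 28871 to 33057 FPKM. The 5 insulin libraries numbered replicate 1 stood apart from the other 25. Their mt-Rnr1, a mitochondrial ribosomal RNA, measured 3042 to 3721 FPKM against 325 to 1029, and the nuclear RNA Malat1 measured 74.0 to 144 against 25.6 to 49.4. Sequencing lanes 1 and 2 held only insulin libraries and lanes 3, 4 and 5 only PBS libraries, and the effects of lane and of treatment cannot be told apart. The table gives no read totals, so the depth behind each value is unknown.

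Of the members, 78 nuclear and all 13 mitochondrial genes reached 1 FPKM in at least 3 libraries and were tested. The mitochondrial genes stood far above the nuclear ones. Their means over the 30 libraries ran from 1668 FPKM for mt-Nd3 to 6867 for mt-Atp8, and together they held 6.29 to 11.0% of each library's summed FPKM. The highest nuclear mean was that of Atp5b, the catalytic beta subunit of ATP synthase, at 570.0 FPKM. It was followed by Cox4i1, a nuclear subunit of complex IV, at 421 FPKM, and by Ndufa4, now counted with complex IV, at 396 FPKM. Complex I subunits were lower, with means from 25.1 FPKM (Ndufb4) to 218 (Ndufb9).

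The isoforms were those of liver. Cox6b1 averaged 240 FPKM and the testis form Cox6b2 0.539, with a value in 14 of 30 libraries. The heart and muscle forms Cox7a1 and Cox8b had a value in 2 libraries and in 1 library and were not tested. The single Cox8b value, 1.07 FPKM, was in PBS replicate 3 of point 5, the library in which muscle and brown fat markers summed to 12.6 FPKM against at most 0.905 in the other 29. Of the ATP synthase c-ring genes, which encode the same mature protein, Atp5g3 averaged 394 FPKM, Atp5g1 67.2 and Atp5g2 40.3. A second row named Atp5o, under another gene identifier, had a value in 1 library only and was not tested.

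Summed over the 81 nuclear rows, FPKM as deposited was lower in all 3 insulin libraries than in all 3 PBS libraries at points 3, 4 and 5. At point 3 the insulin libraries summed to 8628, 8948 and 9854 FPKM and the PBS libraries to 10466, 10710 and 12201. At point 4 the sums were 8523, 8864 and 10150 with insulin and 10221, 10238 and 11293 with PBS. At point 5 they were 8522, 9625 and 9663 with insulin and 10497, 11506 and 11334 with PBS. The groups overlapped at points 1 and 2. After median-ratio scaling, which sets the typical gene equal in every library, they overlapped at all 5 points. The scaled sums at point 5 were 10232, 9897 and 10347 with insulin and 10459, 10197 and 10647 with PBS. Insulin replicate 1, the library highest in mt-Rnr1, had the lowest nuclear sum of its group at every point. PBS replicate 1 also had the lowest nuclear sum of its group at every point, with mt-Rnr1 at 488 to 838 FPKM. Fewer cells of a type and less RNA per cell cannot be told apart in whole tissue.

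The 13 mitochondrial genes gave sums that overlapped between treatments at every point. At point 3, where they lay farthest apart, the insulin sums were 52251, 60558 and 61071 FPKM and the PBS sums 54136, 44513 and 47184. The ratio of the mitochondrial to the nuclear sum at that point was 6.06, 6.77 and 6.20 with insulin and 5.17, 4.16 and 3.87 with PBS, without overlap. At point 5 the ratios were 6.31, 6.05 and 5.40 with insulin and 5.19, 5.39 and 4.65 with PBS, so the groups nearly touched. At points 1, 2 and 4 they overlapped.

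**Figure D1:**
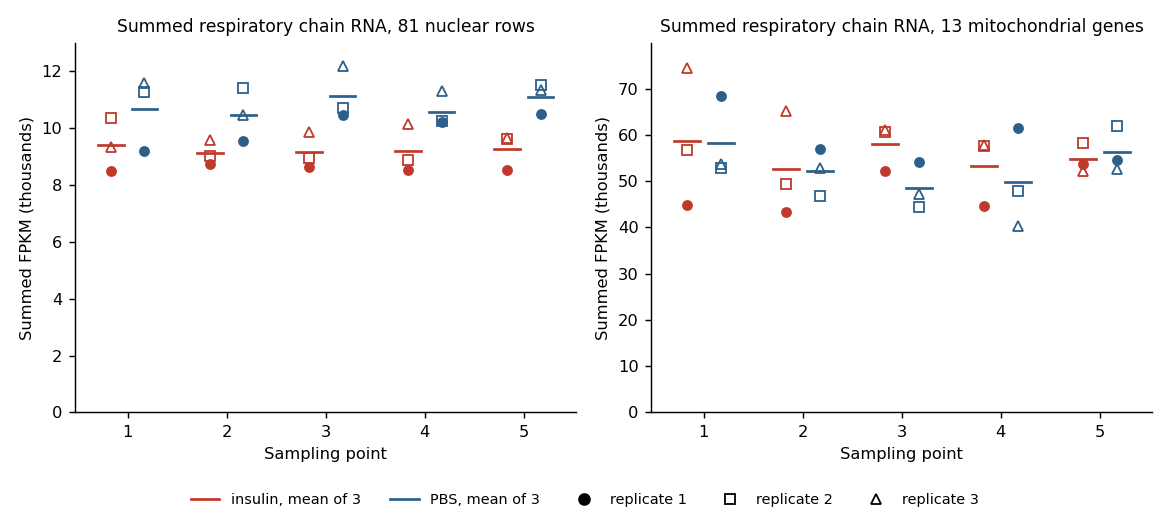
Summed FPKM (axis from 0, in units of 1000 FPKM) of the 81 nuclear rows (left) and the 13 mitochondrial genes (right) at each sampling point. Markers are libraries, with shape for the replicate number, and lines are means of 3. The nuclear sums do not overlap between treatments at points 3, 4 and 5, and the mitochondrial sums overlap at every point.

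No nuclear member was called at points 1 and 2. At point 3, 10 of the 78 fell (12.8%, where 7.26% of all tested genes fell), at point 4, 5 fell (6.41% against 10.4%), and at point 5, 22 fell (28.2% against 16.1%). The corresponding shares of all tested genes called lower at points 1 and 2 were 0.00736% and 0.736%. A single member rose, Ndufc1 at point 5, where 2.96% of all tested genes rose. At points 1 to 4 no member rose, beside 0.0, 0.618, 2.19 and 2.82% of all tested genes. At an unadjusted p below 0.05 there were 16, 18, 32, 25 and 40 of the 78 nuclear members at points 1 to 5. Of all 13589 tested genes there were 1078, 2422, 3767, 4114 and 4657. As deposited, the share of members called lower stood above that of all genes at points 3 and 5. At point 4 it stood below. The excess at points 3 and 5 depended on the scaling of the libraries, as given further below.

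In the values as deposited most nuclear members were somewhat lower with insulin. The median difference of the 78 was -0.17, -0.19, -0.26, -0.23 and -0.30 at points 1 to 5, beside -0.06, -0.12, -0.14, -0.14 and -0.17 for all tested genes. Values below 0 were found for 70, 69, 72, 66 and 68 of the 78. After median-ratio scaling those counts were 59, 46, 51, 45 and 48, and after quantile normalization 46, 47, 52, 46 and 49. All 3 insulin libraries lay below all 3 PBS libraries for 8, 27, 40, 30 and 37 members. Those counts are 10.3, 34.6, 51.3, 38.5 and 47.4% of the members, against 6.44, 18.6, 27.8, 24.3 and 29.0% of all tested genes. For no nuclear member at any point did all 3 insulin libraries lie above PBS, beside 2.99, 4.86, 7.65, 8.01 and 6.42% of all tested genes. Uqcrc1, a core subunit of complex III, was the only nuclear member without overlap at all 5 points.

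**Figure D2:**
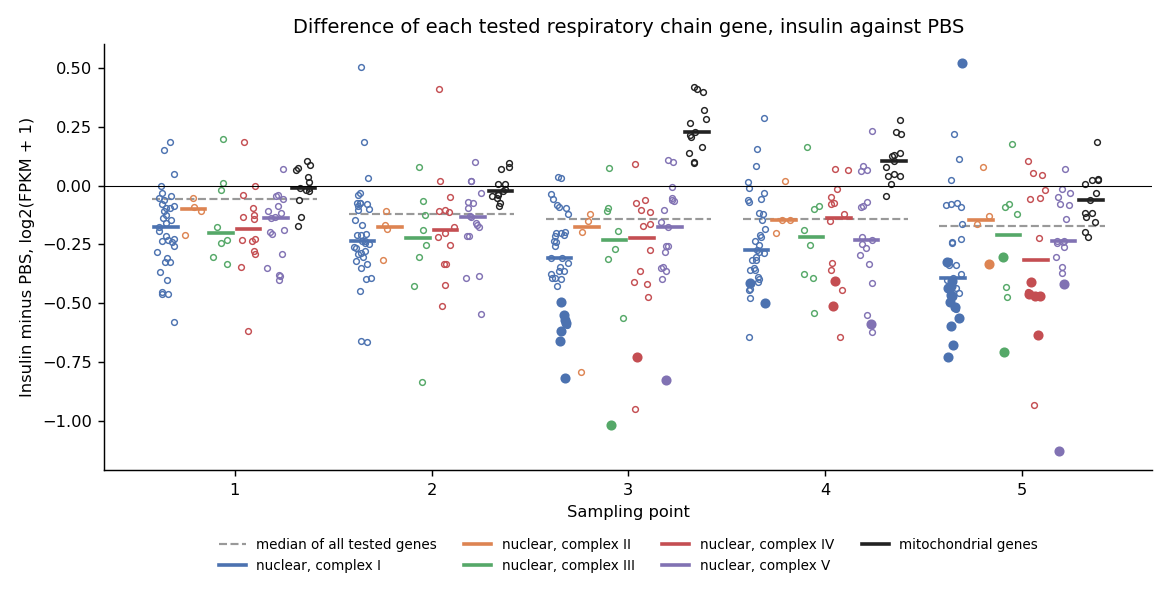
Difference of each tested member (insulin minus PBS, log2(FPKM + 1)) at each sampling point, by complex for the nuclear members and together for the mitochondrial genes. Filled circles are called members, short bars are medians and dashed lines are the median of all 13589 tested genes. Nuclear medians lie below the dashed line except those of complex II at point 5 and complex IV at point 4, and the mitochondrial median lies above it at every point.

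Complex I, the largest of the complexes and the entry for electrons from NADH, had 35 tested nuclear members. Of these 7 fell at point 3 (20.0%), 2 at point 4 (5.71%) and 12 at point 5 (34.3%), beside 7.26, 10.4 and 16.1% of all tested genes. The median difference of these members was -0.31, -0.27 and -0.39 at points 3, 4 and 5. The lowest adjusted p at point 5 was that of Ndufv3, a small subunit of the NADH-oxidising arm (chr17:31520115-31531331, plus strand, GRCm38). It measured 44.9, 51.0 and 56.0 FPKM with insulin and 68.9, 69.1 and 88.3 with PBS. The groups did not overlap, and the difference was -0.56 (SE 0.14, adjusted p = 0.00652). It was not past the threshold without PBS replicate 3 (adjusted p = 0.0514).

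Ndufv1, which holds the NADH-binding site, measured 53.5, 68.6 and 74.5 FPKM with insulin and 84.1, 86.0 and 102 with PBS at point 5 (difference -0.47, SE 0.12, adjusted p = 0.00831). Its call was lost on omitting insulin replicate 1 (adjusted p = 0.0768) or PBS replicate 3 (0.058). Ndufs7, an iron-sulfur subunit close to the coenzyme Q site, measured 26.4, 29.2 and 36.1 FPKM with insulin and 52.0, 48.2 and 63.8 with PBS at point 3 (difference -0.82, SE 0.23, adjusted p = 0.0265), and fell by 0.73 at point 5 (adjusted p = 0.0273). All insulin libraries were below all PBS libraries for both genes. The Ndufs7 call ended without any 1 of insulin replicates 1 and 2 and PBS replicates 1 and 3 at point 3 (adjusted p 0.0576 to 0.111), and of insulin replicates 1 and 3 and PBS replicates 1 and 3 at point 5 (0.0609 to 0.121).

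Smaller members of the complex moved the same way. Ndufa1, a membrane-arm subunit needed for assembly, averaged 115 ± 25.2 FPKM with insulin and 171 ± 16.1 with PBS at point 3 (SD, n = 3) and 105 ± 11.5 against 160 ± 19.0 at point 5 (adjusted p = 0.0352 and 0.0194). Its call was lost on omitting any 1 of 5 libraries (adjusted p 0.0593 to 0.164) at point 3, the exception being insulin replicate 3, and at point 5 on omitting insulin replicate 1 (adjusted p = 0.0959) or PBS replicate 3 (0.0927). Ndufa7 fell at point 3 (60.0 ± 8.05 against 95.3 ± 8.96 FPKM, adjusted p = 0.0336), a call that stood only without insulin replicate 2. Ndufs8, a further iron-sulfur subunit, fell at points 3 and 4 (differences -0.50 and -0.50, adjusted p = 0.0456 and 0.0356), and Ndufa2 fell at point 4 (difference -0.42, adjusted p = 0.0458). The Ndufs8 call stood only without PBS replicate 1 at point 3 and only without insulin replicate 3 or PBS replicate 1 at point 4. The Ndufa2 call stood only without insulin replicate 3 or PBS replicate 2.

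Ndufc1, a small membrane-arm subunit (chr3:51404677-51408988, minus strand), went the other way and is named because it was the only member to rise. At point 5 it measured 34.5, 28.8 and 43.7 FPKM with insulin and 19.6, 24.1 and 30.0 with PBS. The groups overlapped, since the lowest insulin library lay below the highest PBS library. The difference was 0.52 (SE 0.18, adjusted p = 0.0455). The call stood without insulin replicate 2 or PBS replicate 3 and ended without any 1 of the other 4 libraries (adjusted p 0.0913 to 0.205). Within the insulin arm it was 0.59 higher at point 5 than at point 1 (adjusted p = 0.0395), a comparison in which 1304 of the 13589 tested genes were called. No other member was called in any comparison with point 1 in either arm.

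Complex II, succinate dehydrogenase, links the chain to the tricarboxylic acid cycle. Of its 4 genes only Sdhb, the iron-sulfur subunit, was called, at point 5 (25.0%, where 16.1% of all tested genes fell). It measured 79.1, 108 and 108 FPKM with insulin and 113, 133 and 124 with PBS, without overlap (difference -0.33, SE 0.11, adjusted p = 0.0335). The call was lost on omitting insulin replicate 1 (adjusted p = 0.255), PBS replicate 2 (0.121) or PBS replicate 3 (0.0889). The flavoprotein subunit Sdha differed by -0.15 at point 3 (adjusted p = 0.275) and -0.13 at point 5 (0.322), and the membrane anchor Sdhd by -0.20 (0.368) and -0.16 (0.424). Sdhc, the other anchor, was too variable to place, from 36.3 to 148 FPKM over the libraries.

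Complex III, which passes electrons from coenzyme Q to cytochrome c, had 8 tested nuclear members, of which 1 fell at point 3 and 2 at point 5. Those are 12.5 and 25.0%, beside 7.26 and 16.1% of all tested genes. Uqcrq, a small membrane subunit, had the lowest difference of any member at point 3. It measured 170, 175 and 300 FPKM with insulin and 369, 437 and 463 with PBS (difference -1.02, SE 0.29, adjusted p = 0.0303). It varied widely, from 163 to 476 FPKM over the 30 libraries, and its call stood only without insulin replicate 3. Uqcr11, another small subunit, measured 94.7, 98.4 and 101 FPKM with insulin and 152, 152 and 181 with PBS at point 5 (difference -0.71, SE 0.19, adjusted p = 0.0139). That call was lost on omitting insulin replicate 1 (adjusted p = 0.0557) or PBS replicate 3 (0.0677). Uqcrc1 averaged 106 ± 12.6 against 130 ± 2.46 FPKM at point 5 (difference -0.30, adjusted p = 0.0348), and its call stood only without insulin replicate 2 or 3.

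Complex IV, cytochrome c oxidase, held the member called most often. Cox6c (chr15:35925886-35938246, minus strand), a small membrane subunit, fell at points 3, 4 and 5. At point 3 it measured 164, 200 and 222 FPKM with insulin and 308, 305 and 354 with PBS (difference -0.73, SE 0.16, adjusted p = 0.0057). At point 5 it measured 192, 209 and 175 with insulin and 304, 298 and 290 with PBS (difference -0.63, SE 0.16, adjusted p = 0.00751). Both calls stood without any 1 library of the point. At point 4 the difference was -0.51 (adjusted p = 0.0322), and that call stood only without insulin replicate 2 or PBS replicate 2.

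The Cox6c difference followed the PBS libraries. Across points 1 to 5 the PBS mean for Cox6c was 231, 225, 323, 289 and 297 FPKM, and the insulin mean was 199, 211, 195, 203 and 192 FPKM. In the PBS arm point 3 was 0.48 above point 1 (adjusted p = 0.124), and in the insulin arm the 2 points differed by -0.01 (adjusted p = 0.988). Neither the change among PBS points (F test, adjusted p = 0.128) nor the dependence of the insulin difference on the point (adjusted p = 0.407) passed the threshold. Values for Cox6c carry an uncertainty: the gene overlaps Vps13b on the opposite strand, the strand setting of the counting is not given in the sources used here, and Cox6c2, a processed pseudogene copy on chromosome 12, is listed separately at 32.1 FPKM.

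Other complex IV members fell at 1 or 2 points. Cox6a1, the liver form of a regulatory subunit, averaged 165 ± 19.6 FPKM with insulin and 219 ± 22.3 with PBS at point 4, and 158 ± 24.4 against 218 ± 17.2 at point 5 (adjusted p = 0.0461 and 0.0171). The point 4 call stood only without insulin replicate 3, and the point 5 call was lost on omitting insulin replicate 1 (adjusted p = 0.124) or PBS replicate 3 (0.0824). Cox7a2l, counted here with complex IV by its symbol, measured 30.7, 44.7 and 39.9 FPKM with insulin and 54.5, 51.1 and 52.6 with PBS at point 5 (difference -0.46, adjusted p = 0.00982), a call lost only on omitting insulin replicate 1 (0.0921). Cox4i1 averaged 340 ± 38.5 against 471 ± 28.5 FPKM and Ndufa4 337 ± 32.0 against 449 ± 54.7 at point 5 (adjusted p = 0.0324 and 0.0354). Cox4i1 stayed called only without insulin replicate 2, and Ndufa4 only without insulin replicate 2 or PBS replicate 1. Cox6b1, Cox7a2 and Cox8a were not called at any point.

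Complex V, ATP synthase, had 17 tested nuclear members, of which 1 fell at point 3, 1 at point 4 and 2 at point 5. Those are 5.88, 5.88 and 11.8%, beside 7.26, 10.4 and 16.1% of all tested genes. Atp5d, the delta subunit of the rotating central stalk (chr10:80138632-80145818, plus strand), had the lowest difference of any member at point 5. It measured 53.8, 87.9 and 65.8 FPKM with insulin and 141, 147 and 162 with PBS (difference -1.13, SE 0.22, adjusted p = 0.0018). The call stood without any 1 library of the point. At point 3 Atp5d measured 71.5, 91.3 and 79.7 FPKM with insulin and 132, 139 and 160 with PBS (difference -0.83, adjusted p = 0.0236), a call that stood only without insulin replicate 2 or PBS replicate 1. At points 1 and 2 PBS replicate 1, at 78.0 and 85.1 FPKM, lay among the insulin libraries. Atp5d overlaps Cbarp on the opposite strand.

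The abundant catalytic subunit did not follow. Atp5b averaged 587 FPKM with insulin and 621 with PBS at point 5 (difference -0.08, SE 0.09, adjusted p = 0.556). Atp5e, the epsilon subunit that sits beside Atp5d in the central stalk, averaged 173 ± 21.8 against 231 ± 15.9 FPKM at point 5 (difference -0.42, adjusted p = 0.0429), a call that stood only without insulin replicate 2. Atp5g1 averaged 49.9 ± 7.93 against 75.5 ± 12.5 FPKM at point 4 (difference -0.59, adjusted p = 0.0303), and its call was lost on omitting insulin replicate 1 (adjusted p = 0.159), insulin replicate 2 (0.0647) or PBS replicate 3 (0.163). The other c-ring genes, Atp5g2 and Atp5g3, were not called.

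**Figure D3:**
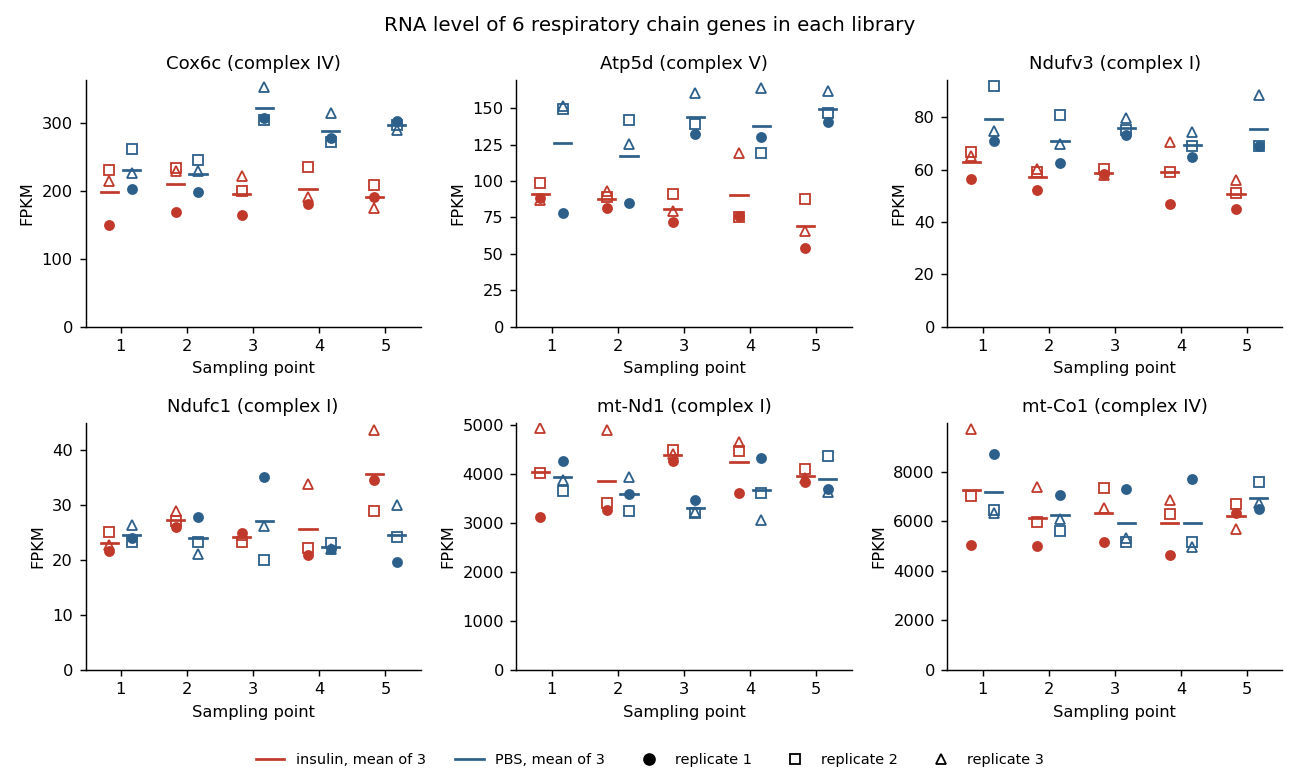
FPKM (from 0) of Cox6c, Atp5d, Ndufv3, Ndufc1, mt-Nd1 and mt-Co1 in each library at each sampling point. Marker shape is the replicate number and lines are means of 3. Cox6c and Atp5d with insulin lie below PBS without overlap at points 3 and 5, Ndufc1 with insulin is highest at point 5, and mt-Nd1 with insulin lies above PBS at point 3 only.

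Most nuclear calls did not stand in every set of 5 libraries. Over the 5 points there were 38 calls, and 35 of them ended when some 1 library of the point was left out, leaving 2 libraries against 3. The 3 that did not were Cox6c at points 3 and 5 and Atp5d at point 5. The differences themselves moved less than the calls. In the 126 omissions that ended a call, the difference left was 55.3 to 115% of that with all libraries, with a median of 92.3%. The number of members called lower at point 5 was 22 with all libraries and 3, 12 and 6 when insulin replicate 1, PBS replicate 2 or PBS replicate 3 was omitted. At point 3 the number was 10 with all libraries and between 1 and 7 with 1 left out. At point 4 it was 5 with all, 0 without insulin replicate 1 or PBS replicate 3, 1 without insulin replicate 2 and 16 without insulin replicate 3. At points 1 and 2 PBS replicate 1 decided the count, which was 2 and 4 without it. Without the whole insulin replicate 1 series the median difference of the 78 was -0.10, -0.16, -0.23, -0.18 and -0.20, beside -0.01, -0.09, -0.12, -0.09 and -0.13 for all tested genes.

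**Figure D4:**
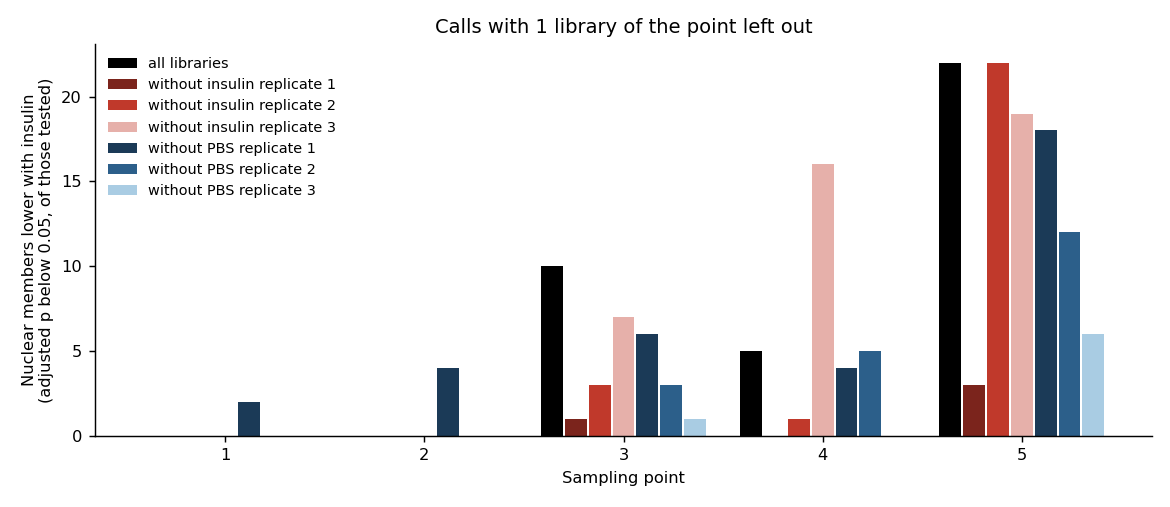
Number of the 78 tested nuclear members called lower with insulin at each sampling point, with all libraries (black) and with 1 library of the point left out (coloured bars). At point 5 the count is 22 with all libraries and 3 without insulin replicate 1.

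Of the 13 mitochondrial genes none was called at any point, where 0.00736, 1.35, 9.45, 13.2 and 19.1% of all tested genes were called in either direction. At an unadjusted p below 0.05 there were 0, 0, 2, 0 and 0 of the 13 at points 1 to 5. Of all 13589 tested genes there were 1078, 2422, 3767, 4114 and 4657. The median difference of the 13 was -0.01, -0.02, 0.23, 0.10 and -0.06. At point 3 all 13 differences were above 0, from 0.10 to 0.42. For 5 of them (38.5%) all 3 insulin libraries lay above all 3 PBS libraries, against 7.65% of all tested genes. These genes are cut from shared precursor transcripts, so they are not independent of each other. No other point had a mitochondrial gene without overlap. Without the insulin replicate 1 series the median was 0.19, 0.12, 0.27, 0.20 and -0.02, so its sign at points 1 and 2 changed. Other single libraries also turned the sign. At points 1 and 2 the median was 0.14 and 0.053 without PBS replicate 1, and 0.005 and 0.01 with insulin replicate 2 omitted. It was -0.047 at point 4 without PBS replicate 3 and 0.043 at point 5 without PBS replicate 2. At point 3 it lay between 0.20 and 0.28 whichever library was omitted.

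Among the complex I genes of mitochondrial DNA, mt-Nd1, a core subunit of the membrane arm, measured 4260, 4481 and 4391 FPKM with insulin and 3466, 3188 and 3225 with PBS at point 3. The groups did not overlap, and the difference was 0.41 (SE 0.16, adjusted p = 0.106). The proton-pumping subunit mt-Nd5 measured 3117, 3236 and 3106 with insulin and 2910, 2111 and 2133 with PBS (difference 0.42, adjusted p = 0.17), and mt-Nd2 averaged 5092 against 4070 FPKM (0.32, adjusted p = 0.295). The other 4, mt-Nd3, mt-Nd4, mt-Nd4l and mt-Nd6, overlapped between treatments, with differences from 0.10 to 0.28. The complex III gene mt-Cytb, which binds coenzyme Q, averaged 6761 against 5834 FPKM (difference 0.23, adjusted p = 0.478).

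Of the complex IV genes, the catalytic subunit mt-Co1 measured 5150, 7359 and 6541 FPKM with insulin and 7331, 5152 and 5332 with PBS at point 3, and the groups overlapped (difference 0.10, SE 0.22, adjusted p = 0.809). The differences of mt-Co2 and mt-Co3 were 0.14 and 0.27 (adjusted p = 0.675 and 0.315). Of the ATP synthase genes, mt-Atp6, the proton channel subunit, measured 5844, 6492 and 6676 with insulin and 5413, 5432 and 5499 with PBS, without overlap (difference 0.22, SE 0.14, adjusted p = 0.31), and mt-Atp8 averaged 7802 against 5864 FPKM (0.40, adjusted p = 0.251).

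Some of these genes share bases, which bears on how fragments can be assigned to them. In the annotation the end of mt-Atp8 and the start of mt-Atp6 overlap by 43 bases (chrM:7927-7969, plus strand, GRCm38), and the end of mt-Nd4l and the start of mt-Nd4 by 7 bases (chrM:10167-10173, plus strand). The lines give each overlap in capitals with 12 bases on either side, read 5′ to 3′, and the first 3 capitals are the start codon of the second gene.
mt-Atp8 and mt-Atp6: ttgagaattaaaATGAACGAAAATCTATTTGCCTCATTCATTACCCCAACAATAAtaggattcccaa
mt-Nd4l and mt-Nd4: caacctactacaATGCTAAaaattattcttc
A fragment that covers either stretch lies in both annotated genes, and mt-Nd6 and mt-Nd5 overlap on opposite strands. The spread of a single gene over the 30 libraries ran from a coefficient of variation of 11.1% for mt-Atp6 to 20.5% for mt-Nd3.

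The size of the differences depended on how the libraries were scaled. Median-ratio scaling moved the median of all tested genes at point 5 from -0.17 to 0.00. The nuclear median then became -0.09, -0.03, -0.08, -0.06 and -0.08 at points 1 to 5, and relative to all genes it was -0.13 as deposited and -0.08 after scaling at point 5. It was below 0 at every point under the deposited values, median-ratio scaling and quantile normalization. After median-ratio scaling 3 of the 78 nuclear members were lower at point 3 (3.58% of all genes), 1 at point 4 (5.82%) and 6 at point 5 (7.83%). At point 5, 6 members were also higher (8.97% of all genes), against 22 lower and 1 higher before scaling. The members' shares called lower at points 3 and 5 were then close to those of all genes. No nuclear member rose at point 3 (5.16% of all genes did) or at point 4 (6.98%). After quantile normalization 10 members were lower and 2 higher at point 5 (7.93 and 8.25% of all genes). The members' share called lower there stayed above that of all genes. After median-ratio scaling the 6 lower members were Atp5d, Cox6c, Uqcr11, Ndufv3, Cox7a2l and Ndufb7, and the 6 higher were Ndufc1, Ndufs1, Ndufb5, Atp5c1, Cox7b and Cox7c. Ndufb7, Ndufs1, Ndufb5, Atp5c1, Cox7b, Cox7c and Ndufc1 were named after their values were seen.

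The mitochondrial median at point 3 was above 0 under each scaling, at 0.40 after median-ratio scaling and 0.19 after quantile normalization, and at point 4 it was 0.27 and 0.09. After median-ratio scaling mt-Nd1 rose by 0.59 (SE 0.15, adjusted p = 0.0134) at point 3, and mt-Atp6 by 0.39 (SE 0.12, adjusted p = 0.05 after rounding, just under the threshold), where 5.16% of all tested genes rose. At points 1, 2 and 5 the sign of the mitochondrial median changed with the scaling. At point 5 it was -0.06 as deposited, 0.16 after median-ratio scaling and -0.22 after quantile normalization.

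**Figure D5:**
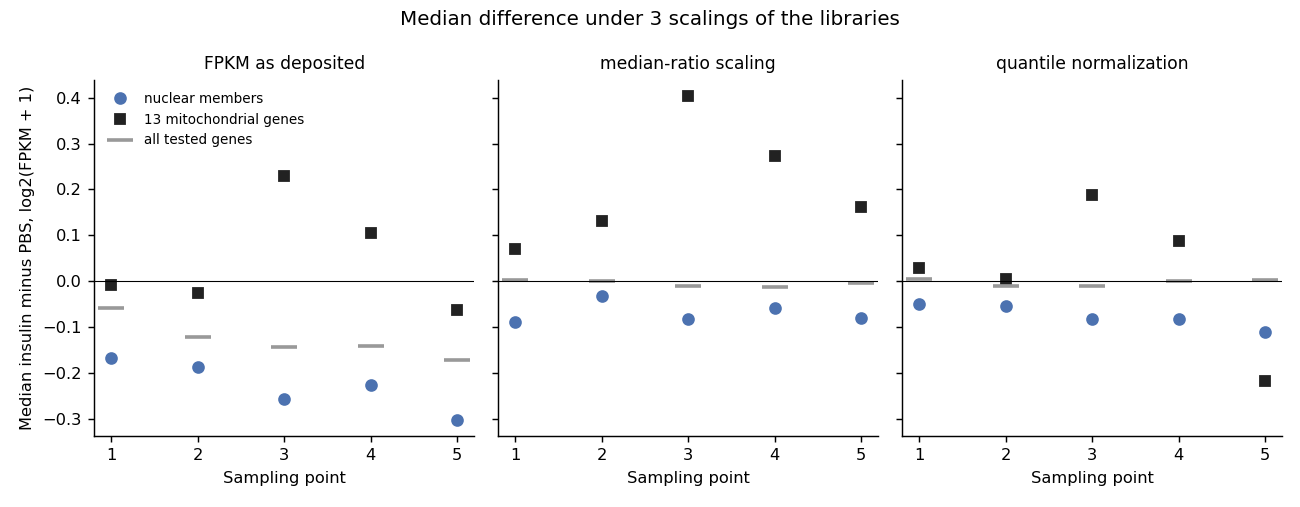
Median difference (insulin minus PBS, log2(FPKM + 1)) of the nuclear members, the mitochondrial genes and all tested genes at each sampling point under 3 scalings. The nuclear median is below 0 in every panel, and the mitochondrial median at point 5 changes sign, from -0.06 as deposited to 0.16 after median-ratio scaling.

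No member's insulin difference could be shown to depend on the sampling point. In the F test of that dependence 0 of 91 members passed (1.77% of all tested genes did). In it 2 nuclear and 0 mitochondrial members had an unadjusted p below 0.05, beside 1573 of the 13589 tested genes. In the F tests within 1 arm, 0 members varied among the PBS points (3.27% of all genes) and 0 among the insulin points (13.3%). At an unadjusted p below 0.05 there were 2 and 1 nuclear members, beside 1945 and 3494 of the 13589 tested genes. The larger counts at points 3 and 5 are therefore not shown to differ from those at points 1 and 2.

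The members are short. The median length of the tested nuclear members was 588 bases against 1042 for all tested genes, and 70 of the 78 were under 1000 bases. Genes outside the set with such lengths and a mean of at least 25 FPKM (1029 genes) had a median difference of -0.21 at point 3 and -0.25 at point 5. At points 3, 4 and 5, 12.5, 14.3 and 24.7% of them fell. For genes of 3000 bases or more at the same level (111 genes) the medians were 0.00 and 0.01, and 18.9% fell at point 5. Of the 70 nuclear members under 1000 bases, taken at any level, 12.9, 5.71 and 27.1% fell at points 3, 4 and 5. The share of all tested nuclear members that fell at point 5 was 28.2%. The part of transcript length in the members' decrease was not tested.

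Promoters were read from RefSeq (GRCm38.p6), which held one for 66 nuclear member genes, from 250 bases before to 50 after the start. Letters known from respiratory genes were searched on both strands: CGCATGCG (the centre of the NRF1 site), CCGGAAG for ETS factors such as GABP, AAGATGG for YY1 and TCAAGGTCA for ERR. A gene with several promoters was counted where any of them held the letters. CCGGAAG was present for 17 (25.8%) of these member genes and for 9.93% of all 27025 genes with a promoter. CGCATGCG was present for 9 (13.6%) and 2.07%, AAGATGG for 10 (15.2%) and 7.28%, and TCAAGGTCA for 2 (3.03%) and 0.466%. Among members called lower at point 5, 5 of 19 with a promoter held CCGGAAG (26.3%), as did 12 of the other 45 tested (26.7%). The stretches shown end at the annotated start, with CCGGAAG or its reverse complement in capitals. Uqcr11 (chr10:80406831-80406971, minus strand) and Atp5e (chr2:174464106-174464251, minus strand) fell at point 5 and hold the letters, Ndufv3 (chr17:31519965-31520114, plus strand) fell without them, and Sdhd (chr9:50603850-50603999, minus strand) holds them and was not called.
Uqcr11: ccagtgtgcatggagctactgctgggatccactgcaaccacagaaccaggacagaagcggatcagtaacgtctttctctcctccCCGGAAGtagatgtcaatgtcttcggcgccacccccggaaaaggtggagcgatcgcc
Atp5e: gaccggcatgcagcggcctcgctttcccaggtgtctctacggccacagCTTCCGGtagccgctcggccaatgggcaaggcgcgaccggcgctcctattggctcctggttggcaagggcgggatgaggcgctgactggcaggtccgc
Ndufv3: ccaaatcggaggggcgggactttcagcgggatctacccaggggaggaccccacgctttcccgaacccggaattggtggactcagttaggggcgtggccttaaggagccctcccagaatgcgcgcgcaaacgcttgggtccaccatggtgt
Sdhd: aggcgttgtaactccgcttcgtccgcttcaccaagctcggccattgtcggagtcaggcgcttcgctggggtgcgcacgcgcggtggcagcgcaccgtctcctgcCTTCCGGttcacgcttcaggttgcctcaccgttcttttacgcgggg
A match of letters is a description of these windows and says nothing of binding in these livers.

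Of 15 tested regulators of these genes, 2 rose (13.3%) and 1 fell (6.67%) at each of points 3, 4 and 5. The shares of all tested genes were 2.19, 2.82 and 2.96% higher and 7.26, 10.4 and 16.1% lower. Ppargc1a and Prkaa2 were the higher genes at each point. The lower gene was Ppara at points 3 and 4 and Sirt3 at point 5. Ppargc1a, the coactivator that drives respiratory genes and fasting gluconeogenesis, measured 20.3, 17.5 and 13.2 FPKM with insulin and 2.105, 1.71 and 1.74 with PBS at point 3 (difference 2.64, SE 0.14, adjusted p = 1.76e-11). It remained above PBS without overlap at points 4 and 5 (differences 1.44 and 1.56, adjusted p = 1.69e-06 and 3.29e-07), and all 3 calls stood without any 1 library of the point. Its partner Esrra differed by -0.57, -0.54 and -0.55 at points 3 to 5 (adjusted p = 0.0738, 0.0765 and 0.0582). Ppara, a nuclear receptor of the fasting response, fell by 0.91 at point 3 (adjusted p = 0.000781), a call that stood without any 1 library and after median-ratio scaling (adjusted p = 0.00249). The calls of Ppara at point 4 (adjusted p = 0.0148) and Sirt3 at point 5 (0.0141) were lost after that scaling (0.0514 and 0.113). That of Prkaa2 at point 3 (adjusted p = 0.0336) ended on omitting any 1 library.

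Genes that maintain and assemble the chain were called lower at shares on either side of those of all genes. Of 28 tested genes for mitochondrial transcription and RNA upkeep, 0, 0, 0, 0 and 1 rose and 0, 0, 1, 3 and 2 fell at points 1 to 5. The last 3 are 3.57, 10.7 and 7.14%, where 7.26, 10.4 and 16.1% of all tested genes fell. At point 5 Mterf2 fell (1.11 against 3.48 FPKM, difference -1.23, adjusted p = 0.00572) and Fastkd1 rose (14.1 against 10.0 FPKM, difference 0.46, adjusted p = 0.0191). Both calls stood after median-ratio scaling (adjusted p = 0.0105 and 0.0043). That of Mterf2 was lost only on omitting insulin replicate 1, and that of Fastkd1 on omitting any 1 of 4 libraries. Tfam, which packages and transcribes mitochondrial DNA, averaged 12.7 ± 2.08 FPKM with insulin and 19.4 ± 3.94 with PBS at point 5 (difference -0.56, adjusted p = 0.0444). That call stood only without insulin replicate 2 or PBS replicate 1 and was lost after median-ratio scaling (-0.35, adjusted p = 0.204). At point 1 the same gene averaged 18.4 ± 1.25 against 11.0 ± 0.962 FPKM (difference 0.69, adjusted p = 0.514). Of 46 complex assembly factors, 0, 1, 3, 7 and 6 fell, the last 3 being 6.52, 15.2 and 13.0%, and only Ndufaf6 rose, at point 4. Timmdc1, needed for complex I assembly, fell at point 5 (11.5 against 16.1 FPKM, adjusted p = 0.00912). That call stood without any 1 library but not after median-ratio scaling (-0.24, adjusted p = 0.095). Ndufaf7 and Ndufaf8 also fell at point 5 (differences -1.03 and -0.74, adjusted p = 0.0103 and 0.0152). Their calls stood after median-ratio scaling (adjusted p = 0.029 and 0.042), but each was lost on omitting either of 2 libraries.

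The steps that feed the chain went in both directions. Of 14 tricarboxylic acid cycle genes, 2 rose (14.3%, beside 2.96% of all tested genes) and 4 fell (28.6%, beside 16.1%) at point 5. Idh3a, a catalytic subunit of the NADH-producing isocitrate dehydrogenase, measured 16.8, 16.5 and 23.7 FPKM with insulin and 8.78, 12.2 and 10.4 with PBS (difference 0.80, adjusted p = 0.000834). The other subunits of that enzyme, Idh3g and Idh3b, fell by 0.62 and 0.43 (adjusted p = 0.00318 and 0.00591). Fh1, fumarate hydratase, measured 117, 127 and 149 FPKM with insulin and 78.6, 89.4 and 73.7 with PBS (difference 0.69, adjusted p = 0.00192). These 4 calls at point 5 stood without any 1 library and after median-ratio scaling. Of 17 genes for mobile carriers and coenzyme Q synthesis, 1 rose at each of points 2 to 5 (5.88%) and 0, 1, 2 and 1 fell (5.88, 11.8 and 5.88% at points 3 to 5). Of all tested genes 0.618, 2.19, 2.82 and 2.96% rose and 0.736, 7.26, 10.4 and 16.1% fell at points 2 to 5. Coq10b, which binds coenzyme Q, measured 36.5, 56.5 and 41.7 FPKM with insulin and 13.3, 16.6 and 18.2 with PBS at point 3 (difference 1.42, adjusted p = 0.00394). Cycs, cytochrome c, averaged 27.9 ± 10.9 against 16.7 ± 0.478 FPKM at point 5 (adjusted p = 0.0439), a call that stood only without insulin replicate 1.

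Markers of the cell types in the lobe were measured beside these genes. Hepatocyte markers (9 of 9 tested, 0 called at any point) summed to 46733 to 64325 FPKM with insulin and 52482 to 66939 with PBS. Their median difference was -0.24, -0.22 and -0.22 at points 3 to 5, where that of the nuclear members was -0.26, -0.23 and -0.30. The 7 sinusoidal endothelial markers summed to 40.0 to 60.8 and 52.8 to 78.8 FPKM, and 1, 1 and 4 of them fell at points 3, 4 and 5 (14.3, 14.3 and 57.1%, beside 7.26, 10.4 and 16.1% of all tested genes). Each of these 6 endothelial calls was lost on omitting at least 1 library, and only that of Stab1 at point 5 stood after median-ratio scaling (adjusted p = 0.0376). The 7 Kupffer cell markers summed to 54.2 to 113 and 71.6 to 204 FPKM, with 3 lower at point 4 (42.9%, beside 10.4%) and 1 at point 5 (14.3%, beside 16.1%). At point 4 the Csf1r call stood without any 1 library, and that of Cd5l was lost only without PBS replicate 1. Both stood after median-ratio scaling (adjusted p = 0.0244 and 0.0195), and that of Clec4f did not (0.0811). The Csf1r call at point 5 was lost on omitting any 1 library and after that scaling (0.255). The 5 erythroid markers had a median difference of -0.65 at point 5, where Alas2 fell (adjusted p = 0.00752), a call lost on omitting insulin replicate 1 and after median-ratio scaling (0.0752). Lymphocyte markers summed to at most 2.28 FPKM, with Cd3d, Cd8a and Cd79a at a median of 0. The part of cell composition in the members' differences was not tested.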

How the data were processed

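Poly(A) RNA libraries were prepared with a directional kit, per the labels' protocols. HISAT2 2.1.0, SAMtools 1.9 and StringTie 2.0.3 and the build GRCm38 (mm10) are listed in the submitters' processing notes. The authors deposited 1 table of FPKM values for 30 libraries. Cells without a value (32.2% of them) were set to 0. Low values were not whole multiples of a fixed step: at the best step 38.1 to 50.9% of them fell within 0.05 of a whole read, so read depth was not recovered.

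FPKM values of at least 1 in 3 or more libraries were required, log2(FPKM + 1) was taken, and limma 3.58.1 (R 4.3.3) with an intensity trend was fitted to the 10 groups of 3 without a block, with Benjamini-Hochberg adjustment. The fit was tested on simulated data. Of 50 genes changed at point 5 by 0.3, 0.5, 1 or 1.5 each, 4, 30, 92 and 92% were recovered. Most changes of 0.3 and 0.5 were thus missed. Genes were named by rule: all mitochondrial and Sdh members, up to 2 called members per complex and point by adjusted p, the 2 most abundant per complex, isoform pairs, and up to 3 called genes per pathway list and point. From the pathway lists not every gene so chosen is described. The members, lists and tests were chosen with earlier results of these data known. Positions and lengths are from GENCODE M21. Alternatives were other pseudocounts, filters, scalings, a replicate block, lane as a random effect, only the libraries of 1 point, and leaving out libraries.

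Annotation joins and figures used Python 3.11.15, pandas 2.3.3 and matplotlib 3.10.9. Promoter sequences are from RefSeq on GRCm38.p6. At least 1 cell had no value in 893 of the tested genes, and a 0 there may be a failed estimate.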

Additional observations from a re-analysis of the deposited data

How the results depend on the processing

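Counts of called nuclear members at points 1 to 5 were 0, 0, 10, 5 and 23. They were 0, 0, 1, 0 and 15 with no filter on low values, 0, 0, 12, 8 and 25 with a mean of at least 5 FPKM, 0, 0, 3, 1 and 12 after median-ratio scaling, 0, 0, 4, 4 and 12 after quantile normalization, and 0, 0, 4, 1 and 19 with equal FPKM sums over genes outside mitochondrial DNA. The fit to the 6 libraries of 1 point gave 0, 0, 6, 0 and 9. Leaving out a whole series of 5 libraries gave 0, 0, 1, 0 and 3 (insulin replicate 1), 0, 0, 2, 1 and 18 (insulin 2), 0, 0, 6, 10 and 19 (insulin 3), 3, 4, 13, 9 and 25 (PBS 1), 0, 0, 3, 3 and 12 (PBS 2) and 0, 0, 0, 0 and 5 (PBS 3). All of these series but insulin replicate 1 were left out as alternatives chosen after seeing the data. With 1 library left out the counts ran from 0 to 2, 0 to 4, 1 to 7, 0 to 16 and 3 to 23. With the replicate block they were 0, 1, 26, 19 and 35. Counts over all tested genes moved as well. At point 5, 2194 of 13589 were lower and 402 higher without a block, and 2708 and 465 with it. Without the insulin replicate 1 series 836 were lower and 271 higher, and without the PBS replicate 3 series 965 and 165. With either of those series left out, the members' share called at point 5 lay below that of all genes. With any other series left out it lay above. Deviations of same-numbered insulin and PBS libraries, taken over all tested genes, correlated between -0.111 and 0.122. Correlations over all genes cannot exclude an effect of replicate number on the members, so whether the numbers pair the samples is not settled. The cause of these changes was not tested.

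The nuclear median at points 2 to 5 was -0.032, -0.083, -0.059 and -0.08 after median-ratio scaling and -0.054, -0.083, -0.083 and -0.11 after quantile normalization. The ratio of summed nuclear FPKM, insulin over PBS, was 0.972, 0.927, 0.972 and 0.974 after the first, and 0.965, 0.920 and 0.942 at points 2, 3 and 5 after the second. After median-ratio scaling 2 mitochondrial genes were called at point 3, their median was 0.40 at point 3 and 0.16 at point 5, and their summed ratio at point 5 was 1.14. After quantile normalization the median at point 5 was -0.22 and the ratio 0.869. Members varying among PBS points numbered 1 after quantile normalization, with the replicate block, or without the insulin replicate 1 series, and 0 to 1 with 1 library left out. Those varying among insulin points numbered 2 after median-ratio scaling and 0 to 1 with 1 library left out. No named difference changed sign among called values. Without read counts, the precision of low values such as Cox6b2 is unknown.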
